A study of Mus musculus with 4 samples.

Results

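The Wnt ligands described here were 10 of the 18194 genes named on the array, Wnt1, Wnt3, Wnt3a, Wnt4, Wnt5a, Wnt5b, Wnt7b, Wnt8a, Wnt8b and Wnt11. Their members were all probe sets that the platform annotation gives to 1 of these genes alone, 18 of the 45101 probe sets on the array. A probe set is a group of short probes that together give 1 value for a stretch of a transcript. Of these probe sets, 11 belonged to the 7 ligands grouped as canonical caudal ligands (Wnt1, Wnt3, Wnt3a, Wnt4, Wnt7b, Wnt8a and Wnt8b) and 7 to Wnt5a, Wnt5b and Wnt11. The cells came from a mouse ESC line in which GFP reports the activity of Rax, an eye field and forebrain homeobox gene, so the cells of both groups carried the reporter. ESCs were grown as floating aggregates in a serum-free, chemically defined medium (SFEBq culture), dissociated on day 4.5 and sorted by FACS, and no other treatment separated the groups. GFP+ cells were taken as rostral neuroectoderm and GFP- cells as presumptive caudal neuroectoderm, and each group was measured on 2 Affymetrix mouse arrays, described in the methods as biological duplicates. The reporter line limits the groups as a model, since GFP- cells were defined only by lacking GFP and each RNA came from many aggregates together.

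Wnt proteins are secreted glycoproteins that carry a lipid, added by the acyltransferase Porcn in the endoplasmic reticulum, and travel to the cell surface with the carrier Wls. Canonical ligands bind a Frizzled receptor together with Lrp5 or Lrp6, which stabilizes β-catenin and turns on target genes through TCF and LEF factors, and in the early embryo this signal gives the neural plate its caudal character. Wnt5a, Wnt5b and Wnt11 are known mainly for β-catenin-independent signaling through Ror receptors and the planar cell polarity pathway, which shapes tissues during convergent extension. The comparison asks which of these ligands differed between rostral and presumptive caudal cells around the time at which caudal polarization begins.

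The deposited values were RMA log2 values, with array medians between 5.84 and 5.89. A log2 difference is GFP- minus GFP+ throughout, so a positive value is higher in GFP- cells. Each difference was tested with limma, a linear model that shares the estimate of the spread among probe sets, and passed when its p, after Benjamini-Hochberg adjustment over the 45101 probe sets, was under 0.05. The number of arrays limits the precision. The sort was seen in the regional markers: Rax fell by 2.05 (standard error, SE, 0.13; adjusted p = 0.00785) and Six3, a rostral marker, fell by 0.85 (adjusted p = 0.0389) on the log2 scale, while Irx3, a caudal marker, rose by 2.59 (adjusted p = 0.0175). With each array left out in turn, Rax moved between -2.20 and -1.90, Six3 between -1.01 and -0.69 and Irx3 between 2.23 and 2.95. Six3 did not pass in any such fit. Irx3 missed the threshold once GFP+ replicate 1 was left out, and both Rax and Irx3 missed it when either GFP- array was left out. GFP- cells also had higher markers of other cells, with 7 of 8 endoderm, 5 of 6 pluripotent and 2 of 7 primitive streak and mesoderm genes past the threshold. Each gene was read from its most expressed probe set, and in that way 5.40% of all genes were called higher. In such bulk samples, fewer cells of a type and less RNA per cell cannot be told apart.

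Of the 10 ligands, 7 were above background in at least 1 group. RMA values carry no detection call, so background was set through receptors of the nose, whose genes are little used in neuroectoderm. A probe set counted as above background in a group when both arrays exceeded the 95th percentile of 80 probe sets of 71 olfactory and vomeronasal receptor genes, a log2 value between 5.22 and 5.41 depending on the array. Wnt1, Wnt3a, Wnt4, Wnt5a, Wnt5b, Wnt7b and Wnt8b each had at least 1 probe set above this level, and Wnt3, Wnt8a and Wnt11 had none. Counted by probe set, 9 of 18 were above background in at least 1 group, beside 58.7% of all probe sets on the array. There were 7 in GFP+ cells and 9 in GFP- cells. The 7 were above background in both groups, and the 2 added in GFP- cells belonged to Wnt1 and Wnt8b. A further 8 probe sets were below the level on every array, and 1 of Wnt4 exceeded it on 1 GFP- array. Probes differ in how well they bind, so a probe set below this level is not evidence that the gene was silent, and levels were not compared between genes.

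**Figure D1:**
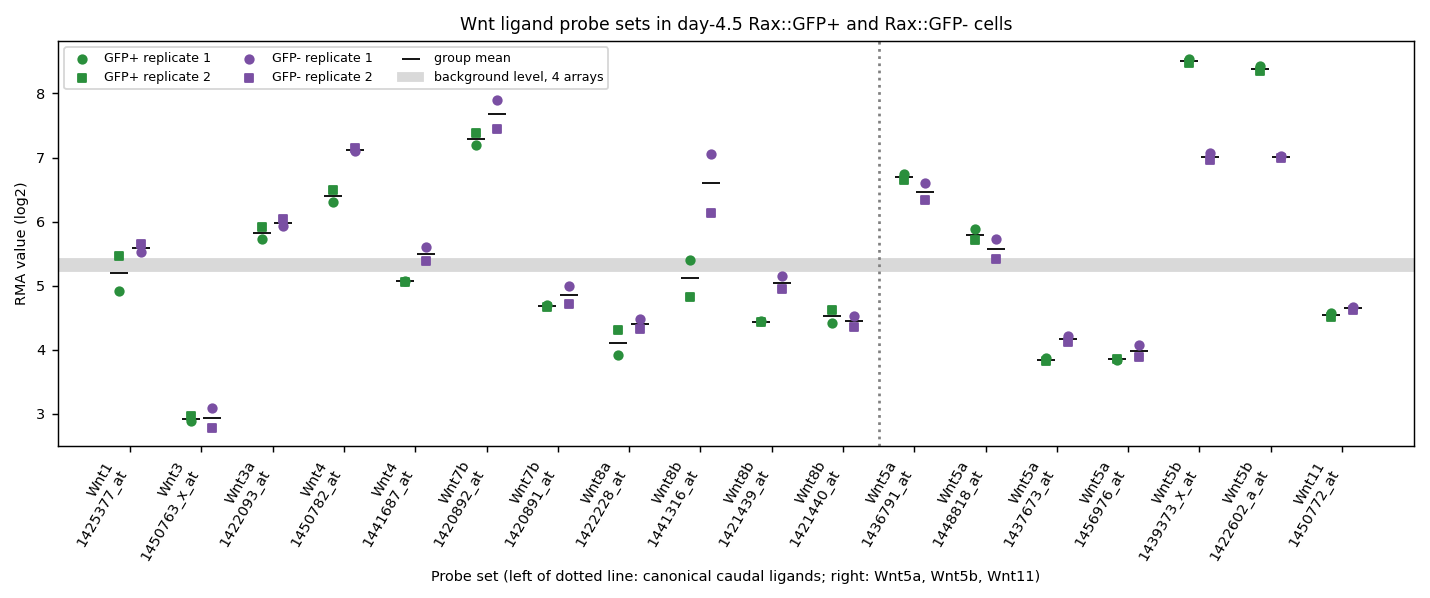
RMA log2 value (y axis) of the 18 Wnt ligand probe sets (x axis) on each array, with GFP+ cells in green, GFP- cells in violet, replicate 1 as circles, replicate 2 as squares and group means as short lines. The grey band is the background level of the 4 arrays, 5.22 to 5.41, and the 2 Wnt5b probe sets to the right of the dotted line lay at 8.35 to 8.54 in GFP+ cells and 6.96 to 7.07 in GFP- cells.

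Of the 18 probe sets, 4 passed the threshold, 2 of them higher and 2 lower in GFP- cells. Over the whole array 7.47% of probe sets passed, 3.64% higher and 3.82% lower in GFP- cells. The higher ones were 1 probe set of Wnt4 and 1 of Wnt8b, and the lower ones were both probe sets of Wnt5b. At an unadjusted p under 0.05, 7 of 18 passed, 5 higher and 2 lower, beside 26.7% of all probe sets. The 2 groups did not overlap at 15 of 18 member probe sets, 12 of them higher and 3 lower in GFP- cells, and such a separation was seen at 57.3% of the probe sets on the array.

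Wnt4, a ligand of the dorsal neural tube and spinal cord that is best known from kidney formation, rose in GFP- cells. Its most expressed probe set (1450782_at) had log2 values of 6.31 and 6.50 in GFP+ cells and of 7.10 and 7.15 in GFP- cells. Both GFP- arrays lay above both GFP+ arrays, and all 4 were above background. The means were 6.40 ± 0.14 (SD, n = 2) and 7.13 ± 0.03 (SD, n = 2), a log2 difference of 0.72 (SE 0.10, 95% interval 0.47 to 0.98, adjusted p = 0.0278 from limma), which is 1.65-fold. A second Wnt4 probe set (1441687_at) had log2 values of 5.07 and 5.07 in GFP+ cells and of 5.60 and 5.39 in GFP- cells. It leaned the same way, with only 1 GFP- array above background, and did not pass (log2 difference 0.43, SE 0.10, adjusted p = 0.0787 from limma). It was not above background in either group, so no fold is given.

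Wnt8b, a ligand of the early posterior forebrain and midbrain and later of the cortical hem, was measured by 3 probe sets that did not behave alike. The most expressed one (1441316_at) had log2 values of 5.40 and 4.83 in GFP+ cells and of 7.06 and 6.13 in GFP- cells. No overlap was seen, but the 2 arrays of each group lay far apart, and only 1 GFP+ array was above background. Replicate 1 was the higher array in both groups, and GFP- minus GFP+ was 1.66 in replicate 1 and 1.30 in replicate 2. The log2 difference of this probe set was 1.48 (SE 0.37, 95% interval 0.50 to 2.46), and it did not pass (adjusted p = 0.0894 from limma). The GFP+ mean of 5.12 was below the level of both GFP+ arrays, so the size of this difference is uncertain. The second (1421439_at) had log2 values of 4.45 and 4.43 in GFP+ cells and of 5.15 and 4.94 in GFP- cells. It passed with a log2 difference of 0.61 (SE 0.10, 95% interval 0.35 to 0.87, adjusted p = 0.0399 from limma), although all 4 arrays were below background, so no fold is given. The third (1421440_at) had log2 values of 4.42 and 4.63 in GFP+ cells and of 4.53 and 4.36 in GFP- cells, all below background. Its groups overlapped, with a log2 difference of -0.08 (SE 0.11, adjusted p = 0.726 from limma).

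Wnt1 and Wnt7b had higher means in GFP- cells, but neither passed. Wnt1, which marks the midbrain and the roof plate, had log2 values of 4.92 and 5.47 in GFP+ cells and of 5.52 and 5.65 in GFP- cells. The 2 GFP+ arrays were further apart than the group means, 5.20 ± 0.39 (SD, n = 2) and 5.59 ± 0.09 (SD, n = 2), and the log2 difference was 0.39 (SE 0.20, 95% interval -0.14 to 0.92, adjusted p = 0.302 from limma). Only 1 GFP+ array was above background, against both GFP- arrays, where the levels were 5.33 and 5.41. On every array Wnt1 was below the array median, which was 5.84 to 5.89. Wnt7b, a ligand of the embryonic forebrain and of lung and placenta, had at its most expressed probe set (1420892_at) log2 values of 7.20 and 7.38 in GFP+ cells and of 7.90 and 7.45 in GFP- cells, all above background. GFP- replicate 2 lay just above the GFP+ arrays, and the log2 difference was 0.38 (SE 0.18, 95% interval -0.09 to 0.85, adjusted p = 0.262 from limma). Its other probe set (1420891_at) was below background on all arrays, with log2 values of 4.67 to 4.72 except on GFP- replicate 1, where it was highest, and a log2 difference of 0.17 (adjusted p = 0.418 from limma).

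The ligands of the primitive streak and tail bud, Wnt3, Wnt3a and Wnt8a, did not pass. Wnt3a, which keeps caudal progenitors of the body axis, was the only one of them above background, with log2 values of 5.73 and 5.91 in GFP+ cells and of 5.93 and 6.03 in GFP- cells. The 2 groups nearly touched, and the log2 difference was 0.16 (SE 0.10, 95% interval -0.11 to 0.42, adjusted p = 0.391 from limma). Wnt8a, an early ligand of the streak and the caudal neural plate, had log2 values of 3.91 and 4.31 in GFP+ cells and of 4.48 and 4.32 in GFP- cells, and its log2 difference of 0.29 (SE 0.16) did not pass (adjusted p = 0.327 from limma). Wnt3, which is needed to form the streak, had log2 values between 2.78 and 3.09 on the 4 arrays. Its groups overlapped, with a log2 difference of 0.01 (SE 0.13, 95% interval -0.32 to 0.34, adjusted p = 0.972 from limma). Both Wnt8a and Wnt3 were below background on all arrays.

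Wnt5b, a ligand of convergent extension and a close relative of Wnt5a, fell in GFP- cells. Its most expressed probe set (1439373_x_at) had log2 values of 8.54 and 8.47 in GFP+ cells and of 7.07 and 6.96 in GFP- cells. Its second probe set (1422602_a_at) had log2 values of 8.43 and 8.35 in GFP+ cells and of 7.02 and 6.99 in GFP- cells. At both, every GFP+ array lay more than 1 log2 unit above every GFP- array, and all were above background. The log2 difference was -1.49 (SE 0.08, 95% interval -1.70 to -1.27, adjusted p = 0.00638 from limma) at the first and -1.38 (SE 0.08, 95% interval -1.58 to -1.18, adjusted p = 0.00638 from limma) at the second. These are 2.81-fold and 2.60-fold lower in GFP- cells. The 2 probe sets measure 1 gene and may share target sequence, so they are not independent.

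Wnt5a, which signals through Ror receptors in tissue outgrowth, was above background in both groups at 2 of its 4 probe sets, and none of the 4 passed. The most expressed one (1436791_at) had log2 values of 6.74 and 6.65 in GFP+ cells and of 6.60 and 6.33 in GFP- cells. Both GFP+ arrays were higher, by a log2 difference of -0.23 (SE 0.12, 95% interval -0.54 to 0.08, adjusted p = 0.300 from limma). The next (1448818_at) had log2 values of 5.89 and 5.71 in GFP+ cells and of 5.73 and 5.42 in GFP- cells, which overlapped, with the same rounded log2 difference of -0.23 (SE 0.14, adjusted p = 0.370 from limma). The remaining 2 were below background on all arrays and had positive log2 differences, 0.32 at 1437673_at (adjusted p = 0.0835 from limma) and 0.13 at 1456976_at (adjusted p = 0.450 from limma). The probe sets of Wnt5a thus differed in sign between those above and those below background.

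Wnt11, a ligand of gastrulation movements and of heart and kidney, was below background on all arrays. Its log2 values were 4.57 and 4.52 on the GFP+ arrays and 4.67 and 4.62 on the GFP- arrays. These did not overlap, and the log2 difference of 0.11 (SE 0.07, 95% interval -0.09 to 0.30) did not pass (adjusted p = 0.436 from limma).

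**Figure D2:**
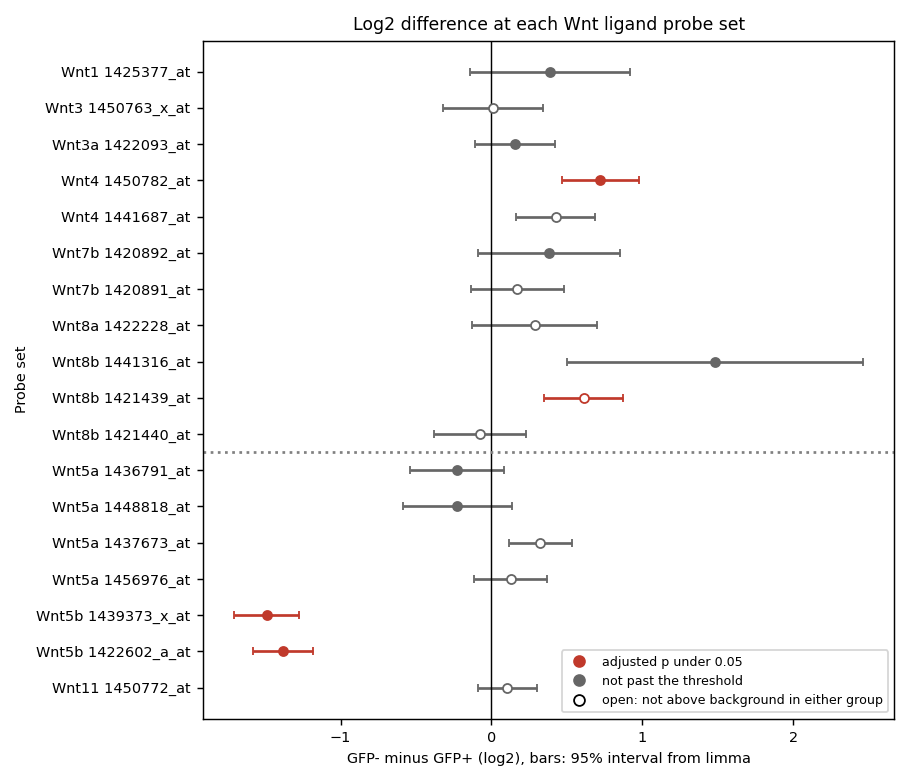
GFP- minus GFP+ log2 difference (x axis) at each of the 18 Wnt ligand probe sets (y axis), with the 95% interval from limma as bars, probe sets past the threshold in red and those not above background in either group as open points. The 2 red points of Wnt5b lie at -1.49 and -1.38, and those of Wnt4 and Wnt8b above the dotted line lie at 0.72 and 0.61.

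The canonical caudal ligands and Wnt5a, Wnt5b and Wnt11 were then set side by side. Of the 11 canonical probe sets, 10 had a positive log2 difference, 2 were called higher and 0 lower. Of these 11, 4 had an unadjusted p under 0.05, all higher in GFP- cells. Of the 7 probe sets of Wnt5a, Wnt5b and Wnt11, 3 had a positive and 4 a negative log2 difference, 0 were called higher and 2 lower, and 3 had an unadjusted p under 0.05, 1 of them higher. Over all probe sets, 57.1% had a positive log2 difference, 3.64% were called higher and 3.82% lower, and 26.7% had an unadjusted p under 0.05. With so few probe sets, the counts at an unadjusted p do not set either class apart from the array. Reading each gene from the probe set with its highest mean, all 7 canonical ligands had a positive log2 difference, from 0.01 in Wnt3 to 1.48 in Wnt8b, and their median was 0.38. The median of Wnt5a, Wnt5b and Wnt11 was -0.23, beside 0.05 over all 18194 genes. By this count 1 of the 7 canonical ligands was called higher, Wnt4, and 1 of the other 3 was called lower, Wnt5b, beside 5.40% of all genes called higher and 2.63% called lower. The median of Wnt5a, Wnt5b and Wnt11 was -0.00056 when all probe sets of a gene were averaged, since the dim probe sets of Wnt5a then offset the brighter ones. The difference between the 2 groups of ligands was itself not tested.

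Dim probe sets leaned toward positive log2 differences on these arrays. Of the 80 nasal receptor probe sets, 77.5% had a positive log2 difference, with a median of 0.08 and 0 calls by limma. Of the 17214 probe sets below the level on every array, 63.4% were positive, against 57.1% of all probe sets, and 1.95% of them were called. The positive differences of Wnt3, Wnt8a, Wnt11 and the dim probe sets of Wnt5a and Wnt7b were found in this range of signal, as was the called probe set of Wnt8b.

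The calls were then recomputed without each array in turn. The log2 differences of Wnt5b moved between -1.54 and -1.34 over both probe sets, and both probe sets passed without GFP+ replicate 1 (adjusted p = 0.0367 and 0.0364 from limma) and without GFP+ replicate 2 (adjusted p = 0.0193 and 0.0190 from limma). Wnt4 at 1450782_at moved between 0.63 and 0.82. It passed without GFP+ replicate 2 (adjusted p = 0.0328 from limma) but missed the threshold once GFP+ replicate 1 was left out (adjusted p = 0.0812 from limma). Wnt8b at 1421439_at moved between 0.51 and 0.72 and did not pass in any of these fits (adjusted p from 0.0952 to 0.195 from limma). The most expressed probe set of Wnt8b moved between 1.01 and 1.95, and Wnt1 moved between 0.11 and 0.66, its lowest and highest values coming from leaving out GFP+ replicate 1 and GFP+ replicate 2. When GFP- replicate 1 or GFP- replicate 2 was left out, 0 of the 45101 probe sets passed limma, with 7704 and 7697 at an unadjusted p under 0.05, so the loss of the member calls there was shared by the whole array. In these fits the lone array of a group was assumed to vary like the other group.

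**Figure D3:**
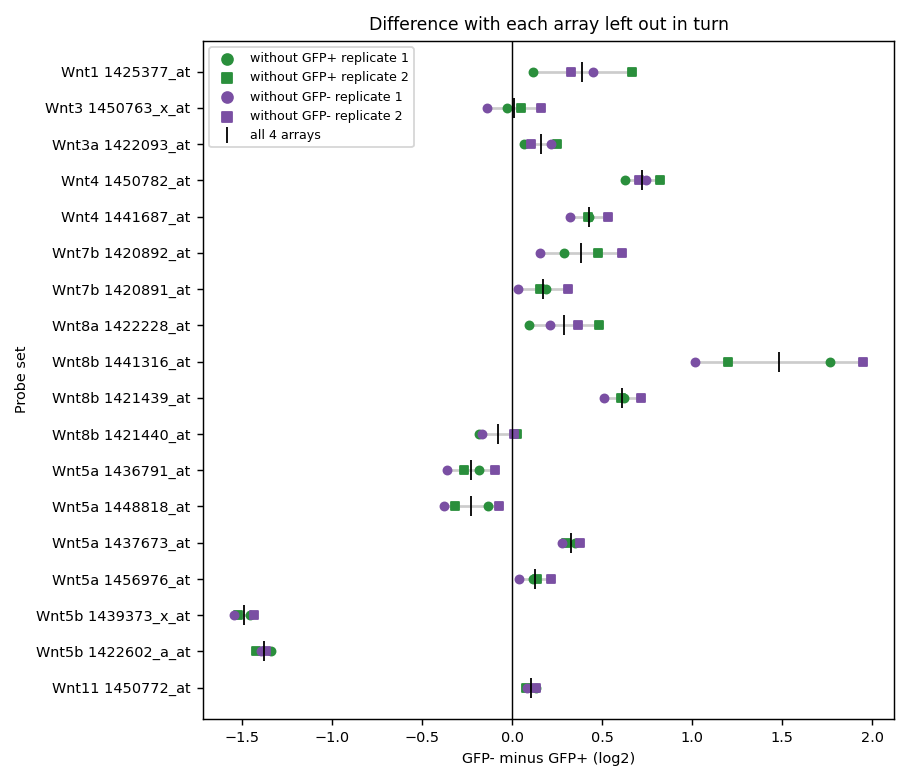
GFP- minus GFP+ log2 difference (x axis) of the Wnt ligand probe sets (y axis) with all 4 arrays (black bars) and after leaving out each GFP+ array (green) or GFP- array (violet), replicate 1 as circles and replicate 2 as squares. Wnt5b stayed between -1.54 and -1.34 and Wnt4 at 1450782_at between 0.63 and 0.82, while Wnt3 and 1421440_at of Wnt8b crossed 0.

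Promoter sequence is shown for the 3 genes with calls, Wnt4, Wnt8b and Wnt5b, so that the letters next to their starts can be compared, with 2 of the 3 starts listed for Wnt5b. RefSeq entries of the GRCm38.p6 build were found for 7 of the 10 ligands, with 10 starts in all, and none was at hand for Wnt5a, Wnt7b and Wnt8a. Each line gives the 250 bases before an annotated start on the gene's strand, chr4:137277385-137277634 (+) for Wnt4, chr19:44493222-44493471 (+) for Wnt8b, and chr6:119544348-119544597 (-) and chr6:119449387-119449636 (-) for the starts 1 and 3 listed for Wnt5b. Capitals mark matches, on either strand, to TAATTA (a core that homeodomain factors bind), CTTTGA (a core that TCF and LEF factors bind) and ATTTGCAT (the octamer of POU factors), which do not overlap each other here.
Wnt4: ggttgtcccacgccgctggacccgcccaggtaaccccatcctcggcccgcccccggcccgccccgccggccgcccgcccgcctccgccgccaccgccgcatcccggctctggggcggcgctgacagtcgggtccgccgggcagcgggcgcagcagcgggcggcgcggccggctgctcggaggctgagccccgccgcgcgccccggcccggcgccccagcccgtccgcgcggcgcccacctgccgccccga
Wnt8b: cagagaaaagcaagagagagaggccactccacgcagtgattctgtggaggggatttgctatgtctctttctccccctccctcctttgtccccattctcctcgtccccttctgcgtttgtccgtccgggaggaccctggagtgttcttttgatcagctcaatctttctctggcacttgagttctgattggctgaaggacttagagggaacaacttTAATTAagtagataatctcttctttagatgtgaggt
Wnt5b, start 1: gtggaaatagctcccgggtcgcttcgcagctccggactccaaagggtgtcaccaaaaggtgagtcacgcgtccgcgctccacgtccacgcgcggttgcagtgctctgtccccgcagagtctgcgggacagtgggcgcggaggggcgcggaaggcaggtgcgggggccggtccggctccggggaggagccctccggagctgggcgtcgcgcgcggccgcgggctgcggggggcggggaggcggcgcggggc
Wnt5b, start 3: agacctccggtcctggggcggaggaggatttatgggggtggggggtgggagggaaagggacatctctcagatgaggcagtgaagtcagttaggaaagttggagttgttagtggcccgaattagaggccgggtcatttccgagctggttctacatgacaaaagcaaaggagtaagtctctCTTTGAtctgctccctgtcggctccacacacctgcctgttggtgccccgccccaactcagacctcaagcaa
The Wnt4 window was 85.2% G and C and held none of the 3 motifs, beside a median of 52.4% G and C over all promoters. The Wnt8b window was 48.4% G and C and held TAATTA from 36 to 31 bases before the start, a motif found in 4.84% of 32851 windows of the same length. The Wnt5b window at start 1 (75.2% G and C) and the window at start 2 (53.2% G and C), which is not printed, held none, and the window at start 3 (55.6% G and C) held CTTTGA from 71 to 66 bases before the start, as 13.83% of windows do. The octamer was in 1.601% of windows and in none of the 4 shown. These matches describe letters only, and the arrays do not tell which start was used.

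The genes whose pattern over the 4 arrays was nearest to those of the called ligands were found by the Euclidean distance of log2 values after each probe set's mean was subtracted, among 18194 genes. Nearest to Wnt5b were Ptprz1, a receptor tyrosine phosphatase of neural progenitors (distance 0.0547), Fign (0.0994) and Ackr3, a chemokine scavenger receptor (0.110). Nearest to Wnt4 were Gpat3, an enzyme of lipid synthesis (0.0219), Aopep (0.0267) and 3010003L21Rik (0.0399). Nearest to 1421439_at of Wnt8b were Otop1 (0.0388), Gstm3 (0.0462) and the corepressor gene Ctbp2 (0.0475). Over only 4 arrays, such a distance is a description.

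The rest of the Wnt pathway was counted by lists, with a gene read from its most expressed probe set, beside the 5.40% of genes higher and 2.63% lower given above. Of 9 other Wnt ligands, 0 passed limma, with 2 higher and 1 lower at an unadjusted p under 0.05, beside 26.7% of all probe sets. Wnt7a, taken because its probe set had the highest mean signal, which does not rank the genes by RNA level, had a log2 difference of 0.24 (adjusted p = 0.343). Among 16 genes of Wnt lipidation, transport and release, 2 were higher and 0 lower. These were Sdc4, a heparan sulfate proteoglycan of the cell surface (log2 difference 0.77, adjusted p = 0.0197), and Porcn, which adds the lipid to Wnt proteins. Porcn had log2 values of 6.06 and 5.99 in GFP+ cells and of 6.55 and 6.57 in GFP- cells (log2 difference 0.54, SE 0.07, adjusted p = 0.0297 from limma). Vps29, a subunit of the retromer that recycles Wls, had a log2 difference of 0.09 (adjusted p = 0.482). Among 15 measured glypicans and heparan sulfate enzymes, 1 was higher, the sulfatase gene Sulf1 (0.46, adjusted p = 0.0391), and 1 lower, the glypican gene Gpc6 (-0.63, adjusted p = 0.0300). Sulf2 had a log2 difference of -0.15 (adjusted p = 0.261).

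On the receiving side, 2 of 16 receptors and co-receptors were higher and 3 lower in GFP- cells. Ror1, a receptor of Wnt5a-type signals, had log2 values of 8.54 and 8.63 in GFP+ cells and of 10.31 and 10.18 in GFP- cells (log2 difference 1.66, SE 0.09, adjusted p = 0.00638 from limma). The Frizzled gene Fzd1 had log2 values of 10.74 on both GFP+ arrays and of 9.59 and 9.60 on the GFP- arrays (log2 difference -1.14, SE 0.07, adjusted p = 0.00733 from limma). Ror1 was thus higher where Wnt5b was lower, but Ror2 of the same list had a log2 difference of -0.01 (adjusted p = 0.987 from limma). Ryk (0.29, adjusted p = 0.0976 from limma) and Ptk7 (0.13, adjusted p = 0.362 from limma) did not pass either. The other called receptors, named after their values were seen, were Fzd7 (0.52), Fzd3 (-1.11) and Fzd4 (-0.93). Fzd5, a receptor of the eye field, had a log2 difference of -0.42 (adjusted p = 0.106). Of 12 secreted antagonists, 0 were higher and 2 lower, Sfrp1 (-0.65, adjusted p = 0.0415) and Frzb (-0.63, adjusted p = 0.0358), both of which bind Wnt proteins outside the cell, and Sfrp2 had -0.20 (adjusted p = 0.171). Dkk1, which the paper also followed, went the other way without passing (0.83, SE 0.44, adjusted p = 0.319 from limma). At an unadjusted p under 0.05, 1 antagonist was higher, Cer1, which was below background on every array, and 3 were lower. Of 14 measured canonical target genes, 0 passed limma. At an unadjusted p under 0.05, 3 were higher and 1 lower, beside 26.7% of all probe sets in either direction. Ccnd1, the cyclin D1 gene, had a log2 difference of -0.14 (adjusted p = 0.361). Axin2, which the paper followed as a Wnt target, had 0.61 (SE 0.23, adjusted p = 0.190 from limma) and did not pass. The list medians were 0.16 for the other ligands, 0.05 for release, -0.10 for glypicans, -0.02 for receptors, -0.01 for antagonists and 0.12 for targets, against 0.05 over all genes. Leaving out GFP+ replicate 1 left 0 calls in the release list and 1 higher and 2 lower among receptors, and leaving out GFP+ replicate 2 left 1 higher in the release list and 1 higher and 3 lower among receptors. The calls among glypicans and antagonists were lost without either GFP+ array.

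**Figure D4:**
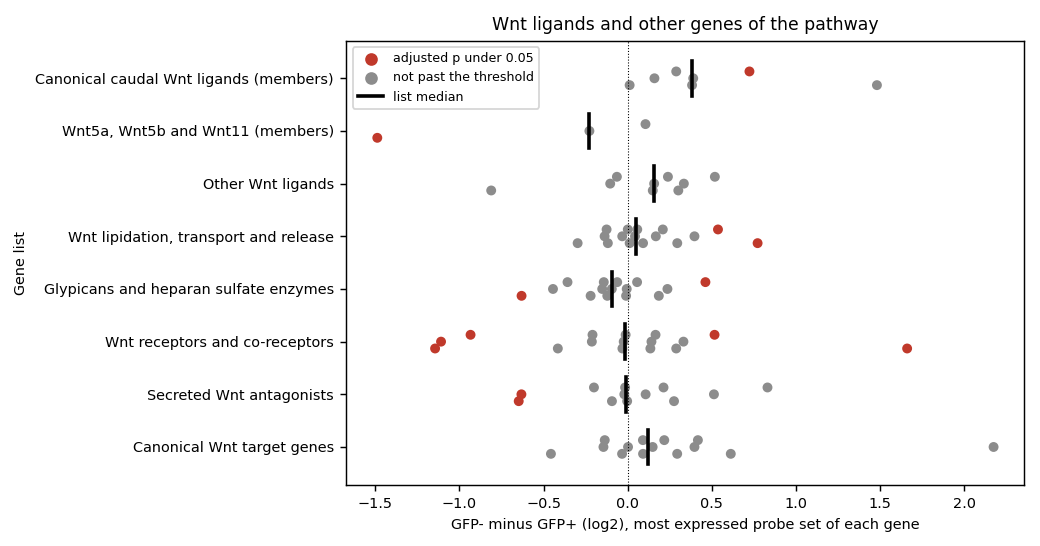
GFP- minus GFP+ log2 difference (x axis) of every measured gene in the Wnt pathway lists (y axis), with 1 point per gene for the probe set of highest mean, genes past the threshold in red and list medians as black bars. Ror1 lies furthest to the right among the called genes at 1.66, and Wnt5b lies furthest to the left at -1.49.

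Markers of the cells that make these ligands in the embryo were measured beside them, and 5.40% of all genes were called higher and 2.63% lower. The summed level of a list is the log2 of the sum of its unlogged values. For 6 midbrain and isthmus genes it was 7.79 to 7.96 in GFP+ cells and 9.51 to 10.2 in GFP- cells, with 2 called higher, Irx3 and Lmx1b, while En1 was below background in both groups. For 7 primitive streak and mesoderm genes it was 7.94 to 8.02 and 9.10 to 9.50, with 2 called higher, Eomes and Evx1. Of that list, Tbx6, Evx1 and Gsc were below background on every array. For 8 endoderm genes the summed level was 9.35 to 9.93 in GFP+ cells and 12.0 to 12.2 in GFP- cells, and for 6 pluripotent cell genes it was 10.3 to 10.4 and 13.2, with the calls given above. For 9 genes of the neural plate border, roof plate and neural crest, which also make Wnt1 and Wnt3a, it was 9.20 to 9.28 and 9.49 to 9.63, with 1 called higher, Foxd3, and 1 lower, Snai2. For 7 genes of non-neural ectoderm it was 11.8 in GFP+ cells and 13.3 to 13.5 in GFP- cells. Of these, 2 were called higher, Epcam (log2 difference 2.89) and Cdh1 (2.60), and 1 lower, Grhl3 (-1.07). Krt8 (0.47) and Krt18 (0.35) leaned higher and Gata3 (-0.52) lower, none of them called, and Dlx5 was below background on every array. The genes of this list thus differed in direction. For 6 neuron genes the summed level was 10.6 to 10.7 and 10.8, with 0 called higher and 1 lower, Tubb3. For 7 forebrain and eye field genes it was 14.3 to 14.4 in GFP+ cells and 13.3 to 13.6 in GFP- cells. Of these genes, 0 were called higher and 5 lower, among them Rax, whose reporter set the sort, so its direction followed from it. Leaving out GFP+ replicate 1 left 0 calls in the midbrain list, and leaving out GFP+ replicate 2 left 2. The calls of Snai2 and Tubb3 were lost without either GFP+ array. The primitive streak list had 1 call in each of these fits, the forebrain list 4, the pluripotent list 5 and the endoderm list 6 and 8, and as on the whole array none was left when a GFP- array was dropped. The part of these cell types in the Wnt4, Wnt8b and Wnt5b differences was not tested.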

How the data were processed

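RNA of day 4.5 GFP+ and GFP- cells was measured on 4 arrays, 2 per group. The authors deposited log2 values from RMA, 1 for each probe set on each array, and R 2.13.0 is named in the submitters' processing notes. Because RMA equalizes the distributions of the arrays, total RNA cannot be compared. Values were fitted as 2 groups with limma 3.58.1 in R 4.3.3, with no block and no filter, after the fit had been tested on simulated data. Of all probe sets, 34958 had 1 gene symbol in the platform annotation, 932 had more than 1 and were not used for naming, and 9211 had no symbol here. Members and gene lists were chosen with earlier results of these data known. Named were all members, 3 markers of the sort, of each pathway list at most 2 called genes, those differing most, and the gene of highest mean signal that did not pass, and the 3 nearest genes of each called ligand. Axin2 and Dkk1, which the paper followed, and Ror2, Ryk and Ptk7 were added later, after their values were seen. Alternatives were the replicate block, Storey's q-value, 2 filters on dim probe sets, centring, quantile normalization, an intensity trend, array weights, the mean of a gene's probe sets, other background levels and leaving out each array. Ndst1, Tcf7, T and Pax2 were not analysed here.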

Additional observations from a re-analysis of the deposited data

How the results depend on the processing

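Same-numbered samples did not deviate together over all probe sets (r = -0.05 over 2 pairs), and they were not treated as pairs. That correlation covers all probe sets, so single genes could still shift by replicate number. Seen afterwards, Rax and Six3 were higher in replicate 2 of both groups. Irx3, Axin2, Dkk1, Sp5 and 1441316_at of Wnt8b were higher in replicate 1 of both. At 1420892_at of Wnt7b the replicates went opposite ways in the 2 groups. So few pairs cannot settle whether a number marks cells sorted from the same aggregates. With the replicate number as a block, 0 of 18 members passed (0 higher, 0 lower) and 0 of all probe sets, with 7 and 11019 at an unadjusted p under 0.05. The adjusted p under the block was 0.0910 for Wnt4, 0.107 for Wnt8b at 1421439_at, and 0.0567 and 0.0578 for Wnt5b. Storey's q-value called 4 members higher and 6163 probe sets in all, and an intensity trend called 6962 probe sets, with the most expressed probe set of Wnt8b then at an adjusted p of 0.0334. Either filter on dim probe sets left 1 member called higher, since 1421439_at of Wnt8b was removed. Averaging a gene's probe sets moved the median of Wnt5a, Wnt5b and Wnt11 from -0.23 to -0.00056.

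Leaving out each array in turn gave 0 to 3 members past the threshold (0 to 1 higher, 0 to 2 lower) and 0 to 2978 of all probe sets, with 820 without GFP+ replicate 1. The median of the canonical ligands ran from 0.11 to 0.48, that of Wnt5a, Wnt5b and Wnt11 from -0.36 to -0.094, and 9 to 10 probe sets were above background. Wnt3 turned to -0.028 under quantile normalization and ran from -0.14 to 0.16 over the left-out arrays, and 1421440_at of Wnt8b ran from -0.18 to 0.027. Both are below background, and neither was called. Centring each array on its median turned the 1642 higher and 1725 lower calls into 1980 and 1612 and kept all 4 member calls, as did quantile normalization and array weights. Signal over background limits Wnt3, Wnt8a, Wnt11 and 2 of the 3 Wnt8b probe sets. With 2 arrays per group, an exact permutation test cannot give a p below 0.333. For the gene lists and the markers of the sort, these alternatives were chosen after seeing the data.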

Other observations

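Among the Wnt ligands outside the 10 described, 3 had an unadjusted p under 0.05 by limma without passing the adjustment, and they are named after their values were seen. Wnt16 had log2 values of 5.96 and 6.29 in GFP+ cells and of 5.16 and 5.47 in GFP- cells (log2 difference -0.81, adjusted p = 0.0630 from limma), with only 1 GFP- array above background. Wnt10b had log2 values of 5.16 and 5.16 in GFP+ cells and of 5.56 and 5.80 in GFP- cells (log2 difference 0.52, adjusted p = 0.0613 from limma), above background on both GFP- arrays and neither GFP+ array. Wnt9b was below background on all arrays, with a log2 difference of 0.33 (adjusted p = 0.0916 from limma).

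Sp5, a direct target of canonical Wnt signaling, was also singled out after its values were seen, since its arrays lay far apart within each group, like those of Wnt8b at 1441316_at. Its log2 values were 5.53 and 4.22 in GFP+ cells and were 7.86 and 6.23 in GFP- cells (log2 difference 2.17, SE 0.70, adjusted p = 0.143 from limma). In both genes replicate 1 was the higher array of each group. Seen afterwards, this also held for Axin2, Dkk1, Nkd1 and Notum but not for Nkd2 or Rnf43.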
